A study of Homo sapiens with 4 samples.

Results

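The 10 genes described here are NFE2L2, which encodes the transcription factor NRF2, its regulators KEAP1 and SQSTM1, its target genes HMOX1, NQO1, GCLM, TXNRD1 and SRXN1, and the ferritin genes FTH1 and FTL. They were taken by symbol from the deposited table of 78932 genes, and each of the 10 had a row. The table gives RNA-seq counts from the established human myeloma line RPMI 8226, collected 72 h after cells were transfected with a locked nucleic acid (LNA) antisense oligonucleotide, a short modified DNA strand that lowers the RNA it pairs with. In one group of 2 libraries the cells received an LNA against the long noncoding RNA LINC01432 at 50 nM, and in the other group of 2 libraries a control LNA, whose dose the labels do not give separately. The labels name a single oligonucleotide per group and a single cell line, and they leave unsaid if a group's libraries are separate cultures, so that p-values speak for the variation among these 4 libraries, possibly technical, and no further.

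NRF2 is held in the cytosol by KEAP1, an adaptor of a CUL3 ubiquitin ligase that sends it to the proteasome. Oxidants and electrophiles modify cysteines of KEAP1, and the autophagy receptor p62, the product of SQSTM1, competes with NRF2 for KEAP1. NRF2 that escapes pairs with a small MAF protein and binds antioxidant response elements beside genes for glutathione synthesis, thioredoxin recycling, quinone reduction, haem breakdown and ferritin. Plasma cells, from which myeloma arises, form large numbers of disulfide bonds in secreted antibody and carry a high oxidative load. Ferritin translation is controlled besides by iron-responsive elements in the 5′ untranslated region, which iron regulatory proteins bind when iron is low.

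The iron-responsive elements of both ferritin transcripts are shown because among the 10 genes only FTL and FTH1 had one in the transcripts searched. A hairpin of this form (C, 5 bases, the loop CAGTGN, and 5 bases that pair with the first 5) was found in the 5′ untranslated region of 14 of 12463 tested coding genes (0.112%), FTL and FTH1 among them. The sequences are from GENCODE 29 transcripts, 5′ to 3′, with the loop in capitals.
FTL, chromosome 19: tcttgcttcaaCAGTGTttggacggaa
FTH1, chromosome 11: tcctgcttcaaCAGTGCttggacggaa
Promoter windows from RefSeq (GRCh38.p14, 250 bases before to 50 after a transcript start) were present for 8 of the 10 genes, all but HMOX1 and FTH1. The core letters of the antioxidant response element, TGACNNNGC on either strand, occurred in a window of 3 of these 8 genes, GCLM, TXNRD1 and KEAP1, against 16.1% of all 27305 genes with a window. Windows of NFE2L2, NQO1, SQSTM1, SRXN1 and FTL did not hold these letters. Sequence more than 250 bases before a start was not searched, so these genes may hold the letters further out. One match of each of the 3 genes is shown with its surroundings on the strand of the gene, the matching letters in capitals. TXNRD1 had further matches 99 and 8 bases before another of its starts, and KEAP1 one 54 bases before the same start. A match of letters is not a measured binding site.
GCLM, chr1:93909436-93909484, minus strand, 34 bases before the start: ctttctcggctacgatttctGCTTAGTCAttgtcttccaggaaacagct
TXNRD1, chr12:104286910-104286958, plus strand, 102 bases before the start: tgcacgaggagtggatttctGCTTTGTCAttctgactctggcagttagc
KEAP1, chr19:10502774-10502822, minus strand, 31 bases before the start: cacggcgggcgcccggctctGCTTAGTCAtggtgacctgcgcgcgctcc

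The libraries held 20873393 and 26185342 gene counts with LINC01432 LNA and 29161298 and 24493148 with control LNA. LINC01432 itself had 9.0 and 9.90 CPM (counts scaled to the size of the library) with LINC01432 LNA against 20.5 and 17.9 CPM with control LNA, a log2 fold change of -1.02 (edgeR adjusted p = 0.000228). The labels disagree on RNA selection, naming poly(A) selection in one place and removal of ribosomal RNA in another. All 9 plasma cell and myeloma markers checked (such as IRF4, SDC1 and TNFRSF17) were detected, with a summed level of 2644 and 2999 CPM with LINC01432 LNA against 3045 and 3232 CPM with control LNA. Of these 1 was called higher and 2 lower. Markers of monocytes and macrophages, cells rich in HMOX1 and ferritin, summed to 5.97 and 6.89 CPM against 5.60 and 5.09 CPM, with LYZ and C1QC, 2 of the 14, at 0 in all libraries. The summed erythroid markers reached at most 6.30 CPM, those of T and NK cells 6.54 CPM and those of fibroblasts and endothelium 7.73 CPM in any library, and 1 erythroid and 1 fibroblast or endothelial marker was called higher. Epithelial markers summed to 110 and 109 CPM against 128 and 122 CPM, led by EPCAM, with KRT19 at 0. The part of these markers in the results was not tested. Fold changes followed the GC content of the transcript, with a median of -0.13 on the log2 scale in the decile of genes with the least GC and 0.37 in that with the most.

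None of the 10 genes passed the test (edgeR quasi-likelihood test with Benjamini-Hochberg adjustment over the 18680 genes tested, adjusted p under 0.05), in either direction. Among all genes tested 11.9% passed, 7.50% higher and 4.37% lower with LINC01432 LNA. After correction for GC content 5.46% were higher and 5.89% lower, so that 48.1% of the called genes were higher instead of 63.2%. At an unadjusted p under 0.05 there were 3 of the 10 genes, FTL, FTH1 and SRXN1, where 25.7% of all genes were. SRXN1 had passed the filter on low counts only through the LINC01432 LNA libraries, where it was higher. DESeq2 called 1 of the 10 (FTL), where it called 8.68% of all genes, and limma-voom 2 (FTL and SRXN1), where it called 11.6%. The median log2 fold change of the 10 was 0.08, that of all tested genes 0.01. Both LINC01432 LNA libraries lay above both control libraries for 4 genes (KEAP1, SQSTM1, FTH1 and SRXN1), as for 28.2% of all genes, and below both for 3 (FTL, TXNRD1 and GCLM), as for 25.9%. These are levels of bulk RNA, in which fewer cells with a transcript and less of it per cell cannot be told apart.

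The 8 genes other than FTH1 and SRXN1 had narrow intervals in the fit of all 4 libraries. Each had at least 483 counts in every library, the standard errors of their log2 fold changes lay between 0.08 and 0.10, and the estimates between -0.27 and 0.20. Their 95% intervals reached no lower than 0.726-fold and no higher than 1.32-fold. With a library left out, the log2 fold change ran from 0.05 to 0.30 for KEAP1 and from -0.07 to 0.18 for HMOX1. For FTL it ran from -0.32 to -0.27. The median absolute log2 fold change of the 8 was 0.12, beside 0.14 for the 6224 genes at or above the level of the lowest of them, of which 19.3% were called.

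**Figure D1:**
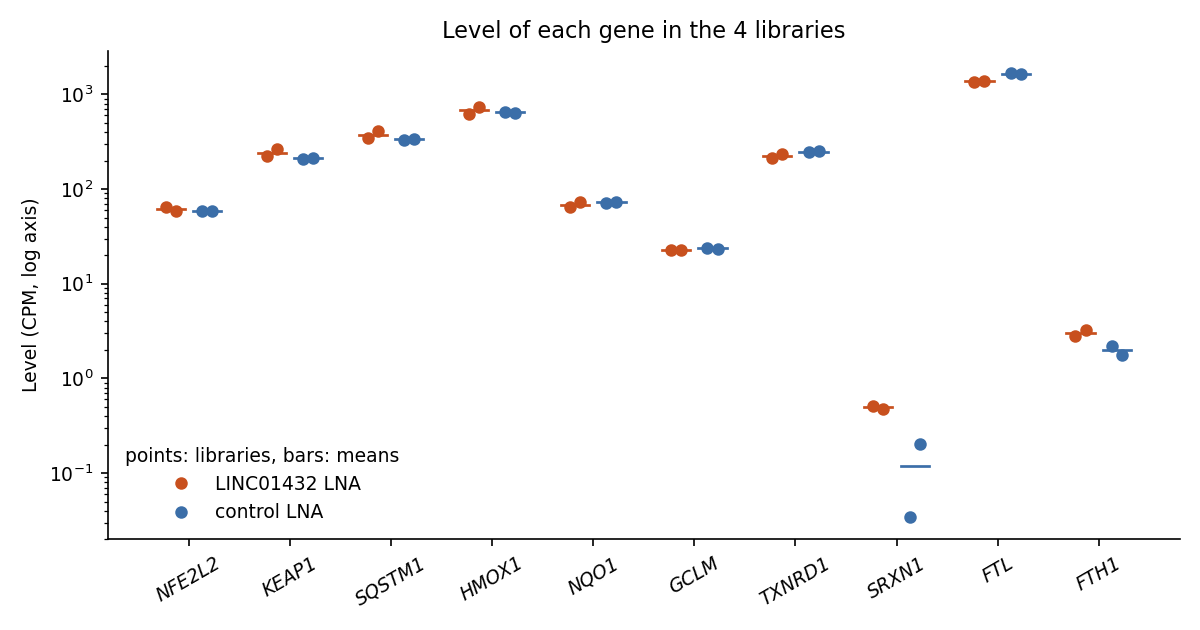
Level of each of the 10 genes in CPM on a log axis; points are single libraries (orange, LINC01432 LNA; blue, control LNA) and bars the means of 2. FTL, the most abundant, had both LINC01432 LNA points (1343 and 1393) below both control points, whereas SRXN1 and FTH1 lay below 4 CPM in every library.

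Per kilobase of exon the order of levels was the same in both groups. FTL was highest, with 1558 CPM per kilobase with LINC01432 LNA against 1884 with control LNA, followed by HMOX1 with 284 against 269. KEAP1 (64.5 against 56.3), SQSTM1 (49.1 against 43.8), TXNRD1 (33.2 against 37.1), NQO1 (21.0 against 22.2), NFE2L2 (10.4 against 9.84) and GCLM (4.18 against 4.38) came next in CPM per kilobase. Within each group the libraries of neighbouring genes in this order did not overlap. The mean level of HMOX1 was at or above that of 99.0% of tested genes and that of FTL at or above that of 99.7%.

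NFE2L2 (ENSG00000116044, chromosome 2 from 177227595 to 177392697 in GRCh38), the gene of NRF2, had 65.4 and 58.5 CPM with LINC01432 LNA against 58.9 and 58.9 CPM with control LNA. The groups overlapped: LINC01432 LNA library 2 lay just below the controls and library 1 above them. The mean was 62.0 ± 4.87 CPM with LINC01432 LNA and 58.9 ± 0.00837 CPM with control LNA (SD, n = 2 libraries each), which is 0.07 as a log2 fold change (SE 0.08, 95% interval -0.11 to 0.26, edgeR adjusted p = 0.656). Without LINC01432 LNA library 1 the sign turned, to -0.03. Of its exonic bases 20.9% overlap other genes, of which the 3 with the largest overlaps are given here. ENSG00000213963 and ENSG00000222043 had at most 81 counts in a library, while AGPS, on the opposite strand, had 67.9 and 61.6 CPM with LINC01432 LNA against 72.4 and 75.0 CPM with control LNA.

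KEAP1 (ENSG00000079999, chromosome 19 from 10486120 to 10503741), the substrate adaptor that marks NRF2 for degradation, had 222 and 263 CPM with LINC01432 LNA against 209 and 214 CPM with control LNA. Both LINC01432 LNA libraries were the higher ones, and library 2 stood further from the controls than library 1. KEAP1 had a log2 fold change of 0.20 (SE 0.09, 95% interval -0.01 to 0.40, edgeR adjusted p = 0.209). With correction for GC content (the transcript has 60.3% GC) it was 0.01 (adjusted p = 0.931). Leaving out LINC01432 LNA library 1 gave 0.30, which was called (adjusted p = 6.26e-07), and leaving out library 2 gave 0.05 (adjusted p = 0.537). Such fits assume that the lone library varies like the other pair, and they called 26.4% of all genes without library 1 and 21.6% without library 2.

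SQSTM1 (ENSG00000161011, chromosome 5 from 179806398 to 179838078), which encodes p62 and is itself an NRF2 target, had 345 and 406 CPM with LINC01432 LNA against 332 and 339 CPM with control LNA. Its pattern was that of KEAP1, with both LINC01432 LNA libraries above the controls and library 2 the furthest. For SQSTM1 it came to 0.16 on the log2 scale (SE 0.09, 95% interval -0.04 to 0.37, edgeR adjusted p = 0.305), and 0.05 after GC correction. The fit without LINC01432 LNA library 1 called it, at 0.26 (adjusted p = 3.22e-06), and that without library 2 gave 0.02. Of the 150-base windows of the SQSTM1 transcript, read on either strand, 45.5% occur in transcripts of MRNIP, a gene on the opposite strand. The row of MRNIP held 193 to 234 counts against 7400 or more for SQSTM1. MGAT4B, also on the opposite strand and overlapping SQSTM1, held 2217 and 2598 counts with LINC01432 LNA against 2832 and 2322 with control LNA.

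HMOX1 (ENSG00000100292, chromosome 22 from 35380361 to 35394214), haem oxygenase 1, which frees iron from haem, had 623 and 742 CPM with LINC01432 LNA against 650 and 643 CPM with control LNA. The controls lay between the LINC01432 LNA libraries, so that the groups overlapped. Its log2 fold change was 0.08 (SE 0.10, 95% interval -0.13 to 0.29, edgeR adjusted p = 0.682) and turned to -0.04 after GC correction. It was 0.18 and called without LINC01432 LNA library 1 (adjusted p = 0.000486), and -0.07 without library 2 (adjusted p = 0.284). KEAP1, SQSTM1 and HMOX1 shared this difference between the LINC01432 LNA libraries: library 2 had 1.19, 1.18 and 1.19 times the CPM of library 1, while the ratio of the controls was 1.02, 1.02 and 0.988. All 3 lie in decile 9 of genes by GC content, whose median log2 ratio of LINC01432 LNA library 2 over 1 was 0.13. Library 2 was the higher one for 8 of the 10 genes, and the share of all genes was not counted. The ratio was 1.12 for NQO1 (decile 5, median log2 ratio 0.00), 1.11 for TXNRD1 (decile 4, median -0.03) and 1.15 for FTH1 (decile 6, median 0.02). For FTL it was 1.04 (decile 8, median 0.09) and for GCLM 1.01 (decile 1, median -0.15). Library 2 was lower for NFE2L2, at 0.895 (decile 4), and for SRXN1, at 0.927 (decile 7, median 0.07). A ratio of 1 is 0 on the log2 scale of the medians. The part of GC content in these ratios was not tested.

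NQO1 (ENSG00000181019, chromosome 16 from 69706996 to 69726951), a quinone reductase often used as a readout of NRF2, had 64.3 and 72.1 CPM with LINC01432 LNA against 71.7 and 72.6 CPM with control LNA. LINC01432 LNA library 1 was the low one and library 2 lay among the controls. On the log2 scale the difference was -0.08 (SE 0.08, 95% interval -0.26 to 0.10, edgeR adjusted p = 0.617). It was called at -0.18 when LINC01432 LNA library 2 was left out (adjusted p = 0.0281), and -0.02 when library 1 was.

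GCLM (ENSG00000023909, chromosome 1 from 93885205 to 93909456), the modifier subunit of the enzyme that starts glutathione synthesis, had 22.5 and 22.8 CPM with LINC01432 LNA against 24.1 and 23.3 CPM with control LNA. The groups did not overlap but differed by little: the log2 fold change was -0.07 (SE 0.09, 95% interval -0.26 to 0.12, edgeR adjusted p = 0.704), and it turned to 0.06 after GC correction. The catalytic subunit GCLC passed the test and fell to 25.6 ± 0.393 CPM with LINC01432 LNA against 35.1 ± 1.80 CPM with control LNA (SD, n = 2), 0.729 times (edgeR adjusted p = 0.0057). Whether the subunits differed from each other was not tested. Without control library 1 the call of GCLC was lost (log2 fold change -0.42), in a fit that called fewer of all genes than the main fit.

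TXNRD1 (ENSG00000198431, chromosome 12 from 104215779 to 104350305), the cytosolic selenoenzyme that recycles thioredoxin, had 211 and 234 CPM with LINC01432 LNA against 248 and 250 CPM with control LNA. Both LINC01432 LNA libraries lay below the controls. Its log2 fold change was -0.16 (SE 0.08, 95% interval -0.34 to 0.02, edgeR adjusted p = 0.257), and -0.10 after GC correction. TXNRD1 was called at -0.25 when LINC01432 LNA library 2 was left out (adjusted p = 2.73e-05), and not, at -0.11, when library 1 was (adjusted p = 0.112).

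SRXN1 (ENSG00000271303, chromosome 20 from 646615 to 653370), sulfiredoxin, which repairs oxidised peroxiredoxins, had only 11 and 12 counts with LINC01432 LNA against 1 and 5 counts with control LNA. Both LINC01432 LNA libraries were higher, but control library 1 was under the floor of 3 counts. SRXN1 passed the filter on low counts only through the LINC01432 LNA libraries, where it was higher. Its fold changes and p-values from the filtered fits are conditional on that, and the alternative filter by CPM left it out. SRXN1 had a log2 fold change of 2.08 (SE 0.65, 95% interval 0.66 to 3.51, edgeR adjusted p = 0.0611). It was 1.24 without control library 1 and 3.65 without control library 2, called in neither fit. limma-voom (adjusted p = 0.0484) and edgeR without a filter on low counts (adjusted p = 0.0254, with 5.37% of all genes called) called it, and DESeq2 gave no adjusted p. Of its exonic bases 85.0% overlap the gene ENSG00000270299 on the same strand, and 84.2% of the 150-base windows of its transcript occur there. That gene had 1 and 1 counts with LINC01432 LNA against 2 and 0 with control LNA. The part of the overlap in these low counts was not tested.

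**Figure D2:**
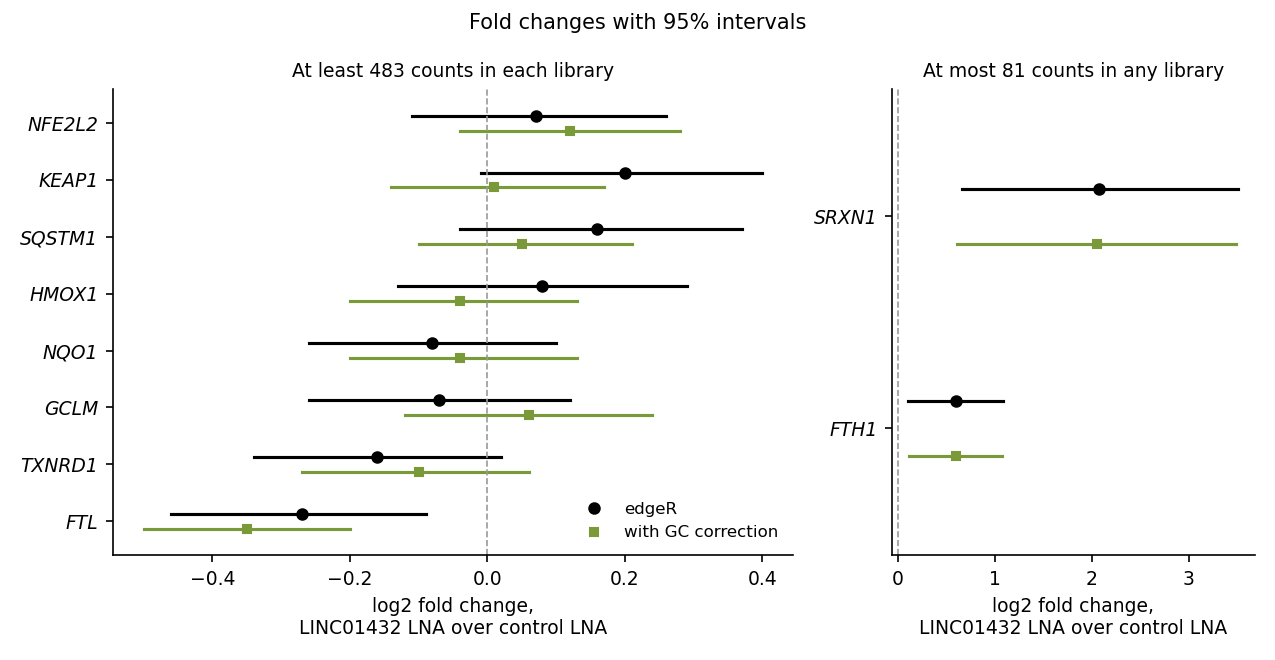
log2 fold change of each gene, LINC01432 LNA over control LNA, with its 95% interval, from edgeR (black) and from edgeR with GC correction (green); the right panel has a wider axis for the genes with few counts. Of the 8 genes on the left, FTL has an interval that leaves out 0 (-0.46 to -0.09), while that of KEAP1 begins at -0.01.

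FTL (ENSG00000087086, chromosome 19 from 48965301 to 48966878), the ferritin light chain, had 1343 and 1393 CPM with LINC01432 LNA against 1683 and 1625 CPM with control LNA. Both LINC01432 LNA libraries were the low ones, and the gap between the groups was wider than the spread within either. The mean was 1368 ± 35.0 CPM with LINC01432 LNA and 1654 ± 41.0 CPM with control LNA (SD, n = 2), 0.827 times. Its log2 fold change of -0.27 (SE 0.09, 95% interval -0.46 to -0.09) missed the threshold by little (edgeR adjusted p = 0.061). Of 13 alternative fits 8 called it, all with a lower level with LINC01432 LNA and none with a log2 fold change outside -0.35 to -0.26. They include DESeq2 (adjusted p = 0.0128), limma-voom (adjusted p = 0.0329), scaling by library totals alone (adjusted p = 0.0141, with 10.1% of all genes called) and GC correction, with which it was -0.35 (adjusted p = 0.0111). The log2 fold change of FTL was -0.27 without LINC01432 LNA library 1 and -0.32 without library 2. It was -0.27 without control library 1 and -0.31 without control library 2. FTL was called in both fits without a LINC01432 LNA library and in neither without a control library. The fits without a control library called fewer of all genes than the main fit, so such a loss is not particular to FTL.

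FTL has 16 processed copies in the table, intronless sequences elsewhere in the genome that derive from its transcript. Together they held 784 and 988 counts with LINC01432 LNA against 1184 and 1099 with control LNA, so that the row of FTL itself held 97.3% to 97.6% of the sum in each library. With the copies added to FTL the log2 fold change was -0.27 (edgeR adjusted p = 0.0635). None of the 150-base windows of the FTL transcript occur in another gene's transcript, but 18.3% of its 50-base windows do, in FTLP3 and FTLP2.

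FTH1 (ENSG00000167996, chromosome 11 from 61959718 to 61967660), the ferritin heavy chain with the ferroxidase activity that loads iron, had 60 and 81 counts with LINC01432 LNA against 64 and 43 with control LNA. In CPM these were 2.80 and 3.21 against 2.20 and 1.75, with both LINC01432 LNA libraries higher. The log2 fold change was 0.60 (SE 0.22, 95% interval 0.11 to 1.09, edgeR adjusted p = 0.111), called without LINC01432 LNA library 1 (0.67, adjusted p = 0.0345). It was 0.76 without control library 1 and 0.44 without control library 2, called in neither.

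The row of FTH1 held a small part of the counts that resemble it. Its 25 processed copies together had 3413 and 4356 counts with LINC01432 LNA against 4661 and 3795 with control LNA, and FTH1 held 1.73% and 1.83% of the sum against 1.35% and 1.12%. The most counted copies were FTH1P8, FTH1P20 and FTH1P2, with 4772, 2698 and 2275 counts over the 4 libraries and 98.1%, 97.8% and 97.6% identity to the FTH1 transcript over the aligned bases. A stretch of the FTH1 coding sequence (bases 285 to 344 from the start codon) and the same stretch of FTH1P8 on chromosome X are shown, with the differing bases in capitals, to show how alike they are.
FTH1: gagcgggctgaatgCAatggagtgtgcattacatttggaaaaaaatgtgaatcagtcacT
FTH1P8: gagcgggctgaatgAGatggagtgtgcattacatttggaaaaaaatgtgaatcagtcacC
Windows of the FTH1 transcript were matched letter for letter, read on either strand. Of the 150-base windows 43.1% occur in transcripts of 3 other genes, BEST1 (as the reverse complement), FTH1P2 and FTH1P7. Of the 50-base windows 78.7% occur in transcripts of 17 other genes. BEST1, on the opposite strand, overlaps 62.4% of the exonic bases and had 39 and 46 counts with LINC01432 LNA against 39 and 28 with control LNA. How the authors' counting treated reads that fit several genes is not given in the sources used here, and its part in the low row was not tested. Summed over FTH1 and its copies, the level was 169 ± 9.82 CPM with LINC01432 LNA and 159 ± 4.14 CPM with control LNA (SD, n = 2), a log2 fold change of 0.08 (edgeR adjusted p = 0.581). Of the 11 copies tested 1 was called, FTH1P12 (log2 fold change 0.45, edgeR adjusted p = 0.0266).

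**Figure D3:**
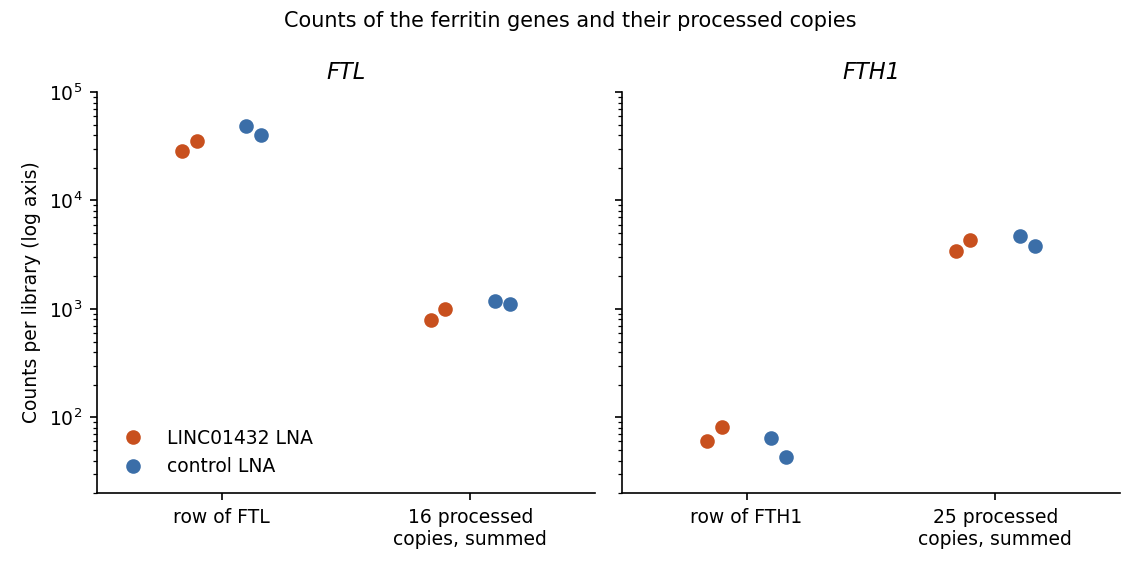
Counts per library on a log axis for the row of each ferritin gene and for the sum of its processed copies (orange, LINC01432 LNA; blue, control LNA). The row of FTL (28810 to 49015 counts) lies far above its copies, whereas the row of FTH1 (43 to 81 counts) lies far below the sum of its own (3413 to 4661).

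The pathways around these genes were read from 8 lists with 209 further genes, of which 177 passed the filter on low counts. Of these 21 were called higher and 9 lower with LINC01432 LNA, 16.9% in all, with a median log2 fold change of -0.03. Of all genes tested 11.9% were called (7.50% higher and 4.37% lower). Of the 6224 genes at or above the level of GCLM 19.3% were called, and the lists were not matched to other genes by level. After GC correction 17 of the 176 genes tested in that fit were higher and 17 lower, beside 5.46% higher and 5.89% lower of all genes. Some lists share genes, and the lists were described by counts and medians only. Calls lost without a control library are given below for single genes. Such fits called fewer of all genes than the main fit, so these losses are not particular to the genes named.

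Among partners, ligases, competitors and relatives of NRF2, 3 of 18 were called higher and 0 lower (edgeR; 0 lower after GC correction as well), with a median log2 fold change of -0.05. MAFK, a small MAF protein that dimerises with NRF2 and with the repressor BACH1, rose to 88.9 ± 8.88 CPM with LINC01432 LNA against 45.1 ± 2.26 CPM with control LNA (SD, n = 2), 1.97 times (edgeR adjusted p = 7.98e-05). The log2 fold change of MAFK, 0.98, shrank to 0.65 with GC correction and was still called, and TMEM184A on the opposite strand overlaps 18.1% of its exonic bases. NFE2L3, an NRF2-related factor, rose 1.83-fold. TRIM21, an interferon-inducible ubiquitin ligase of p62, rose 1.36-fold, with its call lost without control library 1 (log2 fold change 0.29). CUL3, the scaffold of the KEAP1 ligase, had a log2 fold change of -0.26 (adjusted p = 0.054), and of -0.14 after GC correction (adjusted p = 0.286). BACH1, chosen for mention after its values were seen, had 68.6 ± 5.79 CPM with LINC01432 LNA and 73.4 ± 4.79 CPM with control LNA (log2 fold change -0.10, adjusted p = 0.556).

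Of 29 other NRF2 target genes tested, 1 was called higher and 3 lower, with a median log2 fold change of -0.09. Besides GCLC, the NADPH-producing malic enzyme ME1 fell to 38.5 ± 3.18 CPM with LINC01432 LNA against 50.7 ± 2.68 CPM with control LNA (0.759 times, edgeR adjusted p = 0.0148). The efflux pump ABCC4 fell to 0.772 times (adjusted p = 0.0258). PANX2, a channel protein, was 1.40 times as high (adjusted p = 0.0179), but its log2 fold change of 0.48 was -0.00 after GC correction, and DESeq2 did not call it (adjusted p = 0.0557). ME1, ABCC4 and PANX2 each lost the call when control library 1 was left out (log2 fold changes -0.36, -0.37 and 0.36), and ME1 (-0.46) and ABCC4 (-0.40) also when control library 2 was. ABCC4 was also lost with scaling by library totals alone (adjusted p = 0.0617). After GC correction 0 genes of this list were higher and 7 lower, with a median of -0.11.

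In the glutathione list 4 of 28 genes were called higher and 2 lower, with a median of 0.05; after GC correction these were 3 and 3, with a median of 0.12. The peroxidase GPX1 rose to 37.7 ± 8.85 CPM with LINC01432 LNA against 15.8 ± 3.33 CPM with control LNA (2.40 times, edgeR adjusted p = 0.000565). Its log2 fold change of 1.26 was 0.89 after GC correction, still called. CHAC1, which degrades glutathione and is a target of ATF4, rose 2.15-fold to 14.2 ± 2.49 CPM against 6.64 ± 0.643 CPM. The log2 fold change of CHAC1, 1.11, was 0.82 after GC correction, still called. LANCL1 fell to 0.736 times, with its call lost without control library 1 (log2 fold change -0.48, adjusted p = 0.0715) or control library 2 (-0.44, adjusted p = 0.0979). Among thioredoxins, peroxiredoxins and methionine sulfoxide reductases, 2 of 21 were called higher and 1 lower (median -0.11), and 2 and 3 after GC correction. The reductase MSRA fell to 10.3 ± 0.398 CPM with LINC01432 LNA against 17.4 ± 0.230 CPM with control LNA (0.590 times), and the stress-induced SESN2 rose 1.67-fold. The endoplasmic reticulum peroxiredoxin PRDX4 rose 1.49-fold; its log2 fold change of 0.58 was 0.35 without LINC01432 LNA library 2 and lost its call without control library 1 (0.45, adjusted p = 0.15). Thioredoxin itself, TXN, had a log2 fold change of -0.18 (adjusted p = 0.187).

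Of 16 genes of superoxide and peroxide enzymes tested, 2 were called higher and 2 lower, with a median of 0.01, and 2 and 3 of 15 after GC correction. The membrane subunits of the phagocyte NADPH oxidase, which B lineage cells also express, did not move one way: the catalytic subunit CYBB fell to 137 ± 2.08 CPM with LINC01432 LNA against 201 ± 1.00 CPM with control LNA (0.682 times, edgeR adjusted p = 0.000945). CYBA, its membrane partner, rose to 467 ± 123 CPM against 269 ± 46.1 CPM (1.73 times, edgeR adjusted p = 0.00738), though DESeq2 did not call it (adjusted p = 0.1). The log2 fold change of CYBA, 0.79, was 0.48 without LINC01432 LNA library 2. After GC correction it was 0.57, still called. PON2 fell to 0.627 times, not called without control library 2 (-0.62, adjusted p = 0.104).

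The iron and haem list, which surrounds ferritin, had the smallest share of calls of the 8 lists: 2 of 30 genes, both higher, and 0 lower (edgeR; 0 lower after GC correction as well), with a median of -0.05. PCBP1, an iron chaperone that delivers iron to ferritin, rose to 62.4 ± 1.65 CPM with LINC01432 LNA against 23.6 ± 4.08 CPM with control LNA (2.66 times, edgeR adjusted p = 2.69e-05), but PCBP1-AS1 on the opposite strand covers 52.2% of its exonic bases. The iron-sulfur protein CISD2 rose 1.28-fold, without a call by DESeq2 (adjusted p = 0.0627) and without either control library (log2 fold change 0.34 in both fits). NCOA4, the receptor that takes ferritin to the lysosome, had 117 ± 0.302 CPM against 140 ± 4.61 CPM (log2 fold change -0.25, adjusted p = 0.0558). The transferrin receptor TFRC, whose transcript is also under iron-responsive control and which was chosen for mention after its values were seen, had 505 ± 2.19 CPM against 554 ± 8.02 CPM (log2 fold change -0.14, adjusted p = 0.325).

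Among autophagy receptors and their partners, the neighbours of p62, 3 of 29 were called higher and 2 lower (median -0.05), and after GC correction 1 and 2. OPTN, an autophagy receptor, rose 1.32-fold (edgeR adjusted p = 0.0162), MITF, a regulator of lysosomal genes, fell to 0.743 times (adjusted p = 0.0182), and its relative TFE3 and the kinase ULK1 were 1.24 times as high each (adjusted p = 0.0232 and 0.045). After GC correction TFE3 (log2 fold change 0.15, adjusted p = 0.164) and ULK1 (-0.06, adjusted p = 0.644) were not called, and DESeq2 (adjusted p = 0.154) and limma-voom (adjusted p = 0.0523) did not call ULK1. OPTN, MITF, TFE3 and ULK1 each lost the call when a control library was left out, with log2 fold changes of 0.30, -0.43, 0.32 and 0.26 for library 1 and of 0.47, -0.45, 0.29 and 0.32 for library 2.

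In the list of lipid peroxidation and ferroptosis 4 of 14 genes were called higher and 0 lower (edgeR; 0 lower after GC correction as well), with a median of 0.17. SLC3A2, a chain of the cystine importer, rose to 872 ± 122 CPM with LINC01432 LNA against 357 ± 0.586 CPM with control LNA (2.44 times, edgeR adjusted p = 2.78e-05). Its partner SLC7A11, an NRF2 target chosen for mention after its values were seen, had 14.4 ± 0.588 CPM against 13.6 ± 0.303 CPM (log2 fold change 0.07, adjusted p = 0.72). GCH1, which makes the antioxidant tetrahydrobiopterin, rose 1.56-fold and the reductase POR 1.41-fold. The log2 fold change of POR was 0.27 instead of 0.49 after GC correction, still called, and its call was lost without control library 1 (0.44, adjusted p = 0.172) or control library 2 (0.52, adjusted p = 0.0564). MBOAT1 rose 1.23-fold, not called by DESeq2 (adjusted p = 0.0558) or without either control library (0.28 and 0.30).

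**Figure D4:**
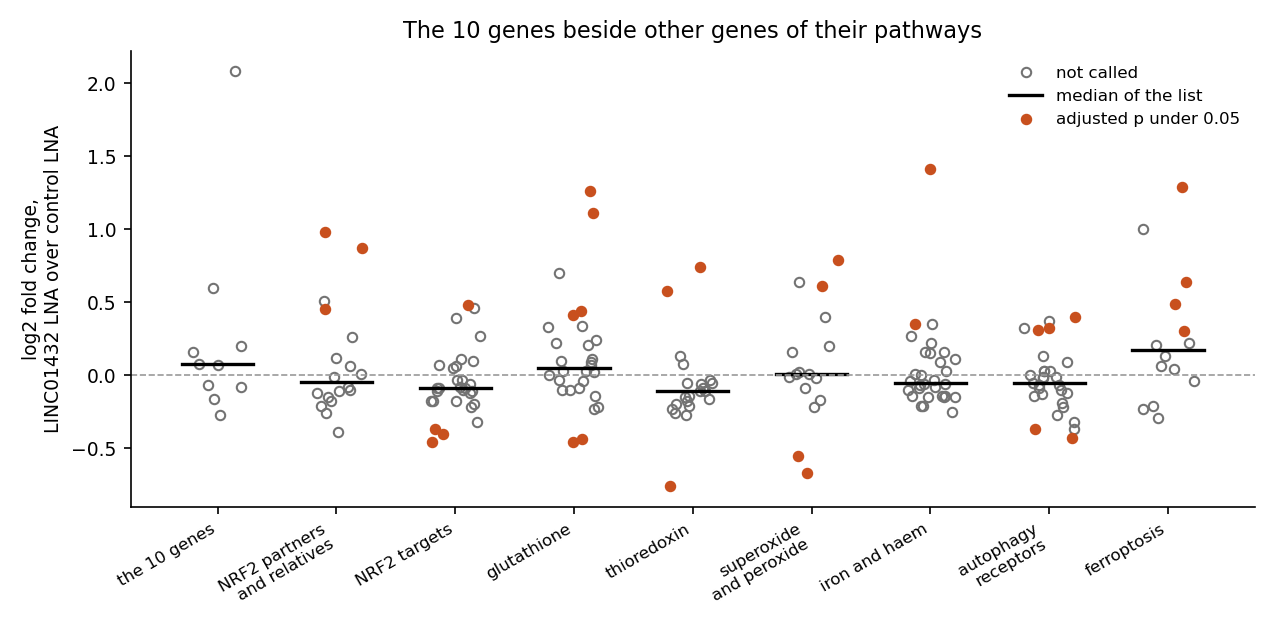
log2 fold change, LINC01432 LNA over control LNA, of each tested gene in the 10 genes and in 8 lists around them; filled points passed the test and bars are medians. All 10 points of the first column are open, and the list medians lie between -0.11 and 0.17.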

How the data were processed

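RNA was sequenced from 4 libraries, 2 per group, placed by their titles. The authors deposited raw counts of reads for every gene. The submitters' processing notes name GRCh38, bcl2fastq, STAR 2.7.11b, Subread's featureCounts 2.0.8 and Salmon 1.10.0; neither the annotation release, the strand setting nor the treatment of multi-mapping reads is given there. The 97 rows of spike-in and transgene sequences (at most 4.2e-05% of a library) were left out.

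Ensembl IDs were given symbols from a gene name table (61481 of 78932 matched); positions, exon overlap and GC content of the longest transcript came from GENCODE 29. Counts were tested in R 4.3.3 with edgeR 4.0.16 (TMM, filterByExpr with minimum count 10 and total 15, group as the only term). The 95% intervals use the fit's t distribution. CPM use TMM-scaled totals; 3 counts were worth 0.103 to 0.14 CPM. With 2 against 2 an exact permutation test cannot go below p = 0.333. The step was tested on simulated data. GC correction used as offsets a lowess fit (span 0.3) on GC content of the deviations of log2 CPM from the gene's mean, library by library. Alternatives were DESeq2 1.42.0, limma-voom (3.58.1), other scalings and filters, left-out libraries and the replicate number as a block.

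The members and lists were chosen with earlier results of these data known. Named were all 10 genes, LINC01432, up to 4 genes per list with the smallest p, and the 3 most counted processed copies. One gene that this rule names is not reported here. The genes nearest in pattern to a called member were not sought, since none was called.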

Additional observations from a re-analysis of the deposited data

How the results depend on the processing

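Of 151 alternative values for the 10 genes, 125 kept their direction and side of the threshold, 20 passed it and 6 changed sign: NFE2L2 without LINC01432 LNA library 1 (-0.03, range to 0.13 over left-out libraries), HMOX1 with GC correction (-0.04, also with the block) and without LINC01432 LNA library 2 (-0.07, range to 0.18), and GCLM with GC correction (0.06, also with the block). The 125 include, for each gene, the stricter thresholds (adjusted p under 0.01, and a 1.5-fold minimum). Those values repeat the main fit, and with no gene called there they could not change. Among named pathway genes PANX2 (-0.00) and ULK1 (-0.06) changed sign with GC correction, with or without the block. The cause of these changes was not tested.

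The same-numbered libraries of the groups share only a number (their deviations correlated at 0.242 over genes). With that number as a replicate block 3862 genes changed instead of 2218, 2 members were higher (SRXN1 and FTH1), and 32 pathway genes were higher and 19 lower instead of 21 and 9. With GC correction and the block the counts were 3756 genes, 2 members higher and 1 lower, and 27 pathway genes lower. GC correction alone gave 1 member lower and 17 pathway genes lower. One member was lower (FTL, 1) with DESeq2, limma-voom, library totals only or no filter on low counts, and 1 was higher (SRXN1) with limma-voom or no filter.

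Leaving out 1 library gave 766 to 5228 changed genes, 0 to 4 members higher, 0 to 3 lower, 9 to 43 pathway genes higher and 3 to 52 lower. An adjusted p under 0.01 left 1000 genes, 11 pathway genes higher and 3 lower, and a 1.5-fold minimum 954, 10 and 2. Of the counts and medians of the lists 248 of 344 stayed within the limits set for them. No copies of NQO1 were found to sum. Counts limit SRXN1 and FTH1: their intervals span 1.58-fold to 11.4-fold and 1.08-fold to 2.12-fold.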
